A study of Solanum lycopersicum with 18 samples.

Results

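Leaf RNA of tomato was followed here through 9 genes that carry only an NCBI locus number (LOC) in the deposited table and whose mean level passed a limit for a higher value at 12 h, but not at 4 h, in both plant lines. They were chosen by measured values. On the log2(FPKM + 1) scale, the mean of the 3 libraries at 4 h had to lie within 0.5 of that at 0 h, and the mean at 12 h had to be at least 1 above that at 0 h, in each line. Genes of chromosome 7 starting between 1.3 and 4.6 Mb were left out, which removed 1 gene. The 9 genes came from 21383 LOC genes among 23348 genes in all. No gene with another kind of identifier met the same limits (0 genes).

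The lines were Micro-TOM-EX (EX) and Micro-TOM (MT), the second a dwarf laboratory cultivar. No label says what the EX suffix stands for. Leaves were taken at 0, 4 and 12 h, with 3 libraries for each of 6 groups (EX and MT at each time) and 18 in all. The growth protocol has both lines in the cold for these hours in a greenhouse with long days. The stress label instead reads cold for all EX libraries and control for all MT libraries, those of 0 h included, so it is not settled whether the MT leaves were chilled. Hours of treatment and time of day moved together and cannot be told apart. Plant age is not stated, nor whether libraries with the same line and time are from different plants. A p-value here therefore reflects library-to-library spread, part or all of which may be technical. Where a bulk level differs, more transcript per cell and more cells of a type cannot be told apart.

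Tomato is a chilling-sensitive plant. In plants studied for their cold response, an early wave of transcription factor transcripts, among them those of the CBF family, is followed over later hours by the transcripts of the genes that these factors act on. Many leaf transcripts also follow the internal clock and the light, so a gene can stand higher at a later hour without any stress. The 9 genes have no product name or known role in the sources used here, and none is given below.

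FPKM is the number of fragments scaled to transcript length and to library depth, so levels can be compared between genes. FPKM totals per library were 758518 to 833908, and the steps between low values placed the depth at 16200000 to 18500000 fragments per library. Of the leaf markers, 16 genes of the Rubisco small subunit and of chlorophyll-binding proteins were read in every library, from 39.1 FPKM for the lowest value to 26758 FPKM for the highest. Most markers of other organs were low. MADS-RIN (fruit ripening) reached at most 0.26 FPKM, and LAT52 and LAT59 (pollen) 0.29 and 0.11. ACS2 (ripening ethylene) reached 0.68 and vicilin (seed storage) 4.02 FPKM. PGcat (fruit softening) was not low in the same way, and read from 4.1 to 22.2 FPKM. No root marker was among the genes found by symbol.

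The pattern was rare among genes that were high at 12 h. Of 21170 LOC genes outside the chromosome 7 segment, 388 stood at least 1 log2 unit higher at 12 h than at 0 h in both lines. In 357 of these the level at 4 h was already more than 0.5 above that at 0 h in both lines. The 4 h level was within 0.5 of 0 h in EX alone for 12 of them, in MT alone for 9, and in both lines for the 9 genes described here. Within a single line, whatever the other line did, more genes met the limits, as must follow when fewer limits are asked. The genes higher at 12 h in 1 line are also a wider set than the 388. In EX, 69 of the 704 LOC genes at least 1 log2 unit higher at 12 h were within 0.5 at 4 h. In MT, 63 of 659 were. The mirrored pattern, at least 1 log2 unit lower at 12 h and within 0.5 at 4 h in both lines, was met by 2 LOC genes. The median of the 9 genes at 4 h was 0.28 log2 units in EX and 0.11 in MT, and at 12 h 1.95 in EX and 1.35 in MT. Over all 17870 genes tested it was 0.02 in EX and -0.01 in MT at 4 h, and 0.04 in EX and -0.06 in MT at 12 h. These values follow from the limits and were not tested.

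**Figure D1:**
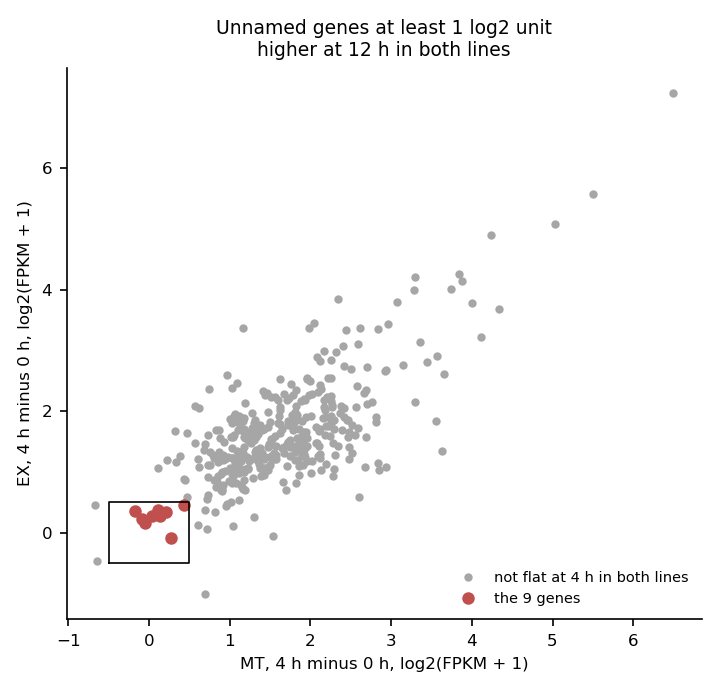
Difference between 4 h and 0 h in EX (vertical axis) and in MT (horizontal axis), both in log2(FPKM + 1), for the 388 LOC genes at least 1 log2 unit higher at 12 h in both lines. Grey points are genes outside the limits at 4 h, red points are the 9 genes, and the box marks 0.5 to either side of 0; most grey points (357 genes) lie above 0.5 on both axes.

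The 9 genes lie on chromosomes 1, 3, 5, 6, 7, 9 and 10 in the deposited coordinates, for which no source used here names a genome build. The RefSeq gene table of assembly SLM_r2.1 holds 6 of them and gives none a symbol. They fall into 3 kinds by level. A pair, LOC101265447 and LOC101252506, was at or near 0 before 12 h. Another 5 were low (LOC101245991, LOC101260537, LOC101253664, LOC104644399 and LOC101251036), with group means from 0.173 to 1.77 FPKM at 0 and 4 h. LOC100736525 and LOC104645435 were already well expressed at 0 h. All 9 passed the minimum of a mean of 1 FPKM in at least 1 group that the tests required. Of them, 5 were under 1 FPKM at 0 h in both lines, and 4 of these also at 4 h, so these 4 passed through the 12 h groups alone.

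LOC101265447 (chromosome 6, 42556565 to 42557498, minus strand, 1 transcript of 934 bases, protein-coding in the RefSeq table) was almost silent at the start. In EX it read 0, 0 and 0.07 FPKM at 0 h, then 0, 0.27 and 0.71 at 4 h, and finally 10.5, 4.66 and 5.15 at 12 h. In MT it was listed at 0 in all 3 libraries at 0 h, and read 0.43, 0 and 0.07 FPKM at 4 h, then 17.2, 6.89 and 3.04 at 12 h. Every 12 h library lay above every earlier one in both lines, and library 1 was the highest at 12 h in EX and in MT. An estimated 1 fragment in all 6 libraries of 0 h, 21 at 4 h and 682 at 12 h stood behind these values. The 12 h minus 0 h difference was 2.85 log2 units in EX and 3.06 in MT.

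LOC101252506 (chromosome 7, 60588840 to 60589573, plus strand) is listed as a pseudogene in the RefSeq table, with 1 transcript model of 693 bases in the deposited table. EX libraries read 0.10, 0 and 0.19 FPKM at 0 h, then 0.10, 0 and 0 at 4 h, and finally 5.56, 7.94 and 9.22 at 12 h. MT libraries were listed at 0 at 0 h, and read 0.20, 0.32 and 0.10 FPKM at 4 h, then 7.04, 5.34 and 5.31 at 12 h. The transcript was thus barely sampled before 12 h, with an estimated 3 fragments over the 6 libraries of 0 h and 7 over those of 4 h, against 405 at 12 h. The 12 h libraries of a line lay close together, within 52 to 91 fragments each. At 12 h it stood 2.95 log2 units above 0 h in EX and 2.78 in MT. A pseudogene can share reads with the gene it derives from, so this level is uncertain.

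LOC101245991 (chromosome 9, 69455376 to 69457444, plus strand, 3 transcripts, protein-coding) was low but present from the start. EX libraries read 1.03, 0.79 and 1.54 FPKM at 0 h, then 1.27, 1.2 and 1.58 at 4 h, and finally 6.25, 12.97 and 7.08 at 12 h. MT libraries read 0.75, 0.62 and 0.45 FPKM at 0 h, then 0.44, 0.62 and 0.58 at 4 h, and finally 3.87, 6.22 and 5.35 at 12 h. All 3 EX libraries lay above all 3 MT libraries at each time, though at 12 h the lowest of EX (6.25 FPKM) barely exceeded the highest of MT (6.22 FPKM). At 12 h it stood 2.16 log2 units above 0 h in EX and 1.92 in MT.

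LOC101260537 (chromosome 5, 65263742 to 65267426, minus strand, 2 transcripts, protein-coding) read at most 1.05 FPKM in any library before 12 h. EX read 0.44, 0.30 and 0.89 FPKM at 0 h, then 1.05, 0.79 and 0.56 at 4 h, and finally 3.98, 5.54 and 3.26 at 12 h. MT read 0.71, 0.49 and 0.50 FPKM at 0 h, then 0.48, 0.66 and 0.29 at 4 h, and finally 2.19, 4.20 and 4.51 at 12 h. The lines overlapped at every time, and every 12 h library lay above the earlier ones of its line. The 12 h minus 0 h difference was 1.76 log2 units in EX and 1.53 in MT.

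LOC104644399 (chromosome 10, 64964087 to 64965825, minus strand, 1 transcript of 1739 bases) sat closest to the limit at 4 h, at 0.46 log2 units above 0 h in EX and 0.43 in MT. EX read 0.61, 0.25 and 0.62 FPKM at 0 h, then 1.05, 1.02 and 1.03 at 4 h, and finally 2.62, 3.32 and 1.84 at 12 h. MT read 1.0, 0.41 and 0.35 FPKM at 0 h, then 1.23, 0.95 and 1.13 at 4 h, and finally 2.36, 3.08 and 2.42 at 12 h. In EX every 4 h library lay above every 0 h library, and in MT the times overlapped through library 1 at 0 h (1.0). The 12 h minus 0 h difference was 1.26 log2 units in EX and 1.21 in MT. Estimated fragments over the 6 libraries were 92 at 0 h, 180 at 4 h and 441 at 12 h. With a pseudocount of 0.1 in place of 1, the 4 h difference was 1.01 log2 units in EX and 0.92 in MT, past the limit of 0.5. Adding 1 to FPKM understates the change of genes this low.

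LOC101251036 (chromosome 9, 71563355 to 71564953, plus strand, 1 transcript of 1599 bases) had the highest 0 h means of the low genes, 1.18 FPKM in EX and 1.56 in MT. EX read 1.68, 0.87 and 0.98 FPKM at 0 h, then 1.65, 1.82 and 1.37 at 4 h, and finally 5.51, 7.59 and 3.59 at 12 h. MT read 2.31, 0.98 and 1.39 FPKM at 0 h, then 1.51, 2.33 and 1.47 at 4 h, and finally 3.08, 6.22 and 3.89 at 12 h. Library 2 was the highest at 12 h in both lines. The 12 h minus 0 h difference was 1.56 log2 units in EX and 1.07 in MT, next to the limit of 1.

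LOC101253664 (chromosome 3, 1502836 to 1505694, minus strand, 2 transcripts, protein-coding) rested on few libraries. EX read 0.10, 1.15 and 0.19 FPKM at 0 h, then 0.10, 0.79 and 1.96 at 4 h, and finally 7.11, 1.19 and 1.24 at 12 h. MT read 0.05, 1.0 and 0.05 FPKM at 0 h, then 0.45, 0 and 0.07 at 4 h, and finally 10.03, 1.01 and 0.64 at 12 h. Library 1 stood alone at 12 h and library 2 at 0 h, in EX and MT alike. Times overlapped: in EX the highest value at 4 h (1.96) lay above 2 of the 12 h libraries, and in MT the highest at 0 h (1.0) lay above 1 of them. Its 12 h minus 0 h difference was 1.27 log2 units in EX and 1.35 in MT. It no longer met the limits without library 1 of EX at 12 h, without library 1 of MT at 12 h, without both, without library 2 of EX at 0 h or without library 1 of EX at 4 h. Over all genes tested, deviations from the group mean also went together between library 1 of EX and library 1 of MT at 12 h (r = 0.57 across genes, which are not independent replicates), and what libraries with the same number share is not given in the labels.

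LOC100736525 (chromosome 3, 66702240 to 66703491, minus strand, 2 transcripts, protein-coding) was by far the most abundant of the 9, above 98.1% of all genes in EX and 98.5% in MT at 0 h. EX read 285, 273 and 114 FPKM at 0 h, then 169, 374 and 248 at 4 h, and finally 830, 723 and 861 at 12 h. MT read 304, 183 and 320 FPKM at 0 h, then 314, 286 and 213 at 4 h, and finally 781, 750 and 445 at 12 h. The 12 h libraries of EX were tightly grouped while those of MT spread widely, and the lines overlapped at every time. At 12 h it stood 1.95 log2 units above 0 h in EX and 1.29 in MT. It overlaps LOC101256860 on the opposite strand, and strand use in counting is not stated, so its reads are uncertain. LOC101256860 itself averaged 9.89 ± 2.02 FPKM in EX libraries of 12 h and 7.79 ± 2.15 in MT libraries (SD, n = 3 each), far below LOC100736525.

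LOC104645435 (chromosome 1, 97399855 to 97400544, plus strand, 1 transcript of 690 bases) differed most between the lines in its course. EX read 14.7, 18.7 and 8.20 FPKM at 0 h, then 15.3, 22.9 and 14.7 at 4 h, and finally 82.9, 95.2 and 107 at 12 h. MT read 40.5, 15.9 and 30.5 FPKM at 0 h, then 41.0, 20.1 and 30.7 at 4 h, and finally 50.2, 72.5 and 52.8 at 12 h. At 0 and 4 h the EX libraries were mostly below those of MT but overlapped with library 2 of MT, whereas at 12 h all EX libraries lay above all MT libraries. The 12 h minus 0 h difference was 2.75 log2 units in EX and 1.07 in MT, so MT only just met the limit of 1. The difference between these, 1.69 log2 units, was the widest of the 9 genes and is untested, since both of its parts were used to choose the genes. LOC104645435 overlaps LOC104645436 on the same strand, which read at most 3.56 FPKM in any library.

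**Figure D2:**
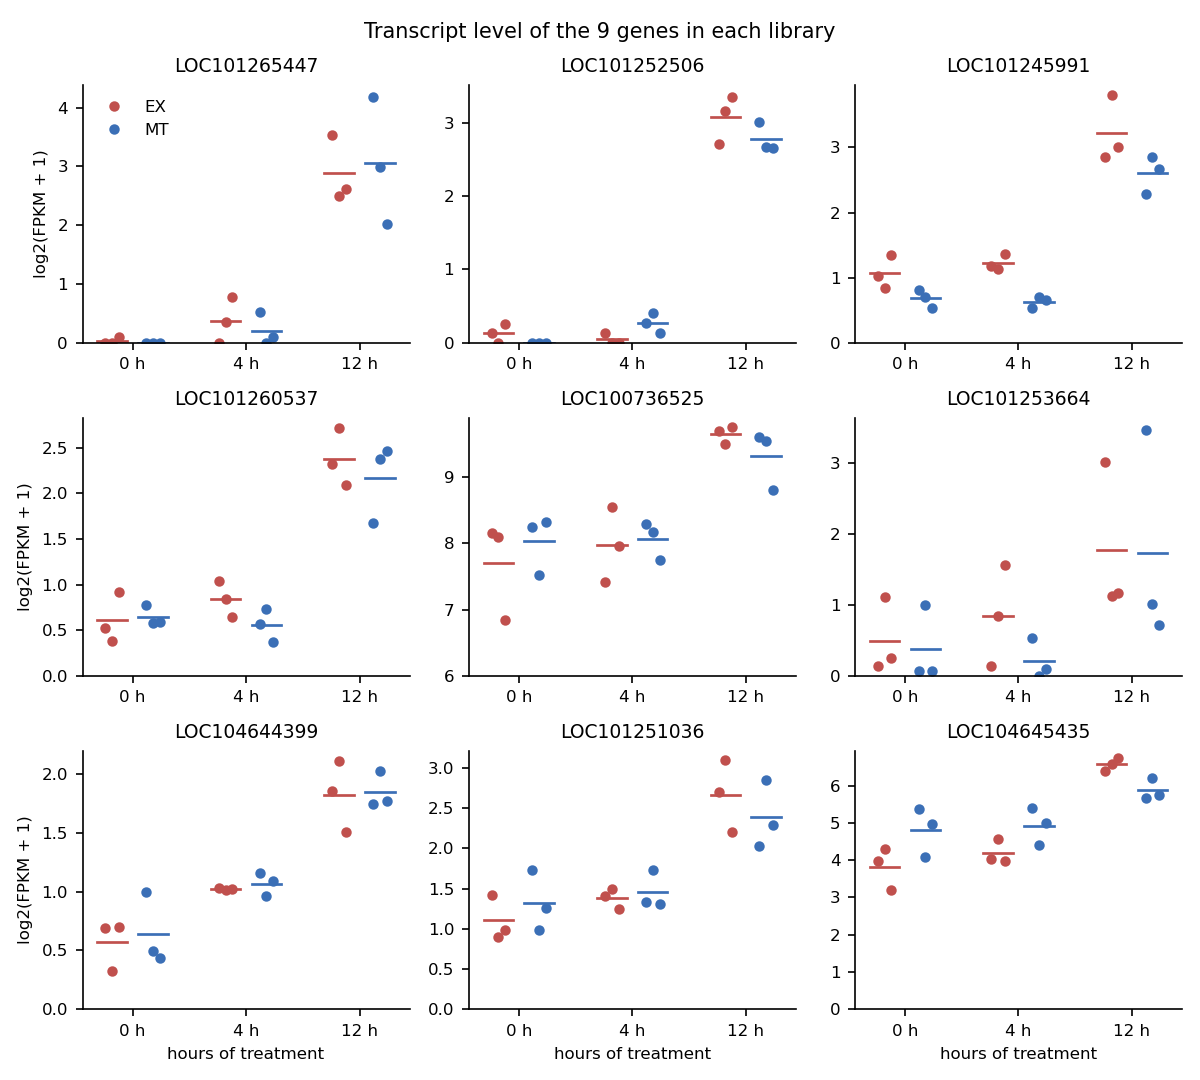
Transcript level of each of the 9 genes in log2(FPKM + 1) (vertical axis) at 0, 4 and 12 h (horizontal axis). Each point is 1 library, red for EX and blue for MT, and the bars are means of 3 libraries; the axis of LOC100736525 starts at 6 and all others at 0. Library 1 of LOC101253664 at 12 h stands alone in both lines (7.11 FPKM in EX and 10.03 in MT).

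The rule compares times within a line and not lines, so lines were tested at each time, with limma over all 17870 genes tested. None of the 9 genes was called at a single time at an adjusted p under 0.05. At 0 h 0 of 9 were called, where 3.17% of all genes were, and 1 of 9 had an unadjusted p under 0.05, where 23.8% of all genes did. At 4 h 0 of 9 were called, where 0.297% of all genes were, and 2 of 9 had an unadjusted p under 0.05, where 14.1% of all genes did. At 12 h 0 of 9 were called, where 0.134% of all genes were, and 1 of 9 had an unadjusted p under 0.05, where 3.35% of all genes did. Same-numbered libraries of EX and MT deviated together across genes at 12 h (r = 0.57, 0.23 and 0.41). The fit did not pair them, so it may call too few genes there, and the 12 h counts do not show that the lines are alike. With the 3 times averaged, 1 of 9 was called, where 2.09% of all genes were. Averaged in this way, 1 of 9 had an unadjusted p under 0.05, where 19.4% of all genes did. Of the 9 genes, 4 entered the tests only through the 12 h groups, where the rule had picked them as high. These 4 were under 1 FPKM at 0 and 4 h in both lines and could hardly be called there. The counts at 0 and 4 h therefore say little about them, and neither does the count over the averaged times, which takes in both. At 12 h they are counted among the 9 through the same groups that the rule had picked as high.

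The called gene was LOC101245991. EX minus MT was 0.54 log2 units over the 3 times (SE 0.13, 95% interval 0.27 to 0.81, limma adjusted p = 0.0423). At the single times it was 0.39 at 0 h (adjusted p = 0.296), 0.60 at 4 h (adjusted p = 0.264) and 0.62 at 12 h (adjusted p = 1), in the same direction each time by limma. Libraries of EX lying above those of MT at each of the 3 times, as seen in this gene, occurred in 0.257% of all genes tested (46 genes). That share covers only the direction seen in this gene, and MT above EX at each time was not counted. The ordering of this gene comes from the same libraries as the call, so it is no separate evidence for the call. The rule also held the mean of this gene at 4 h near that at 0 h in each line. All genes tested were under no such limit, so the share is not a like background. With 1 library fewer the difference stayed between 0.44 and 0.60 log2 units in all 18 fits, but the call was lost in 11 of them, with adjusted p from 0.0265 to 0.10 over the 18. The call was kept without library 2 of MT at any time, without library 2 of EX at 0 h and without any 1 library of EX at 12 h, and lost without any other. Under a stricter minimum (5 FPKM or more in 3 libraries or more) it was lost as well, at the same difference of 0.54 (adjusted p = 0.0708). The same held when library 1 was left out of MT at both 0 and 4 h (adjusted p = 0.0924).

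LOC104645435 had the largest single difference between the lines, lower in EX by value before 12 h and higher at 12 h. EX minus MT was -0.98 log2 units at 0 h (SE 0.34, 95% interval -1.70 to -0.26, limma adjusted p = 0.106), -0.73 at 4 h (adjusted p = 0.35) and 0.70 at 12 h (95% interval -0.02 to 1.42, adjusted p = 1). None of these passed the threshold. Without library 2 of MT, which had read 15.9 FPKM, it was called at 0 h (-1.35, limma adjusted p = 0.0132), in a fit that called 19.0% of all genes at 0 h (3397 genes).

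For the other 7 genes the EX minus MT difference lay between -0.33 and 0.64 log2 units over all times, with no adjusted p by limma under 0.55. Averaged over the times they lay between -0.05 and 0.27. The 4 genes under 1 FPKM at 0 and 4 h in both lines are among these 7, and their values near 0 pull such differences toward 0. These intervals do not show that the lines are alike: that of LOC101253664 at 4 h ran from -0.74 to 2.01. The interval of LOC101252506 over the 3 times was narrower, from -0.13 to 0.27. That gene had at most 3 estimated fragments per library before 12 h. Its narrow interval therefore rests in part on values near 0 and does not show that the lines are alike either.

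**Figure D3:**
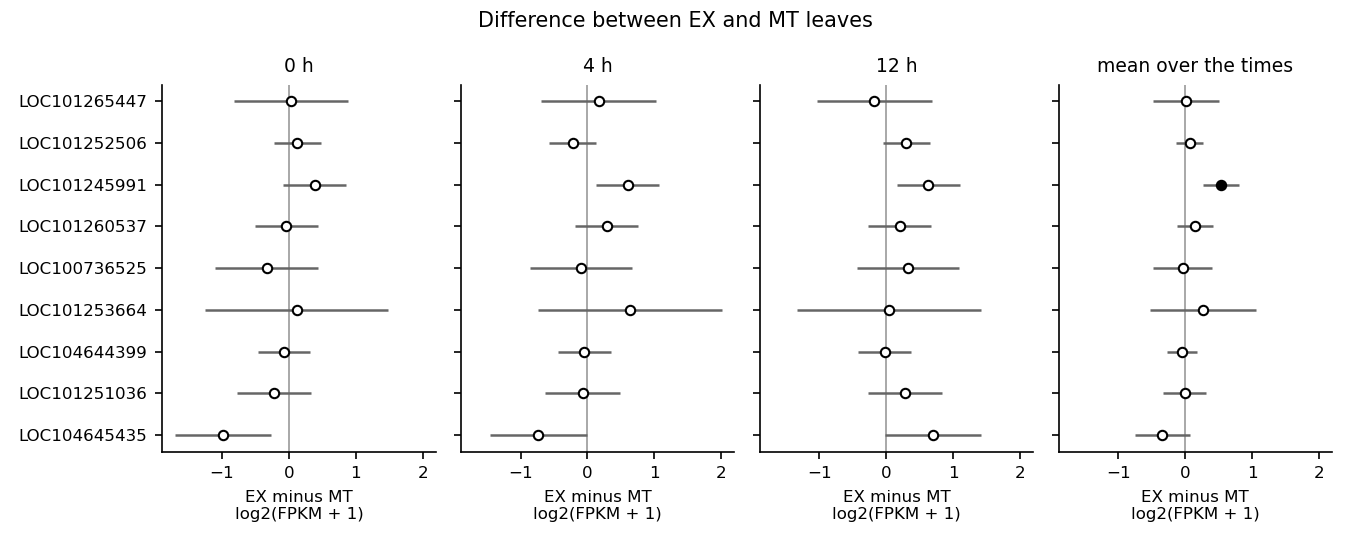
EX minus MT difference in log2(FPKM + 1) (horizontal axis) of each of the 9 genes at 0, 4 and 12 h and averaged over the times. Points are limma estimates, lines are 95% intervals, and the filled point is the 1 gene called, LOC101245991 at 0.54 averaged over the times.

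The genes around the 9 were looked at next, since position played no part in choosing them except on chromosome 7. Within 50 kb lay 117 genes, of which 89 were tested. At 12 h against 0 h their median difference was 0.02 log2 units in EX and -0.11 in MT, beside 0.04 in EX and -0.06 in MT over all genes tested. Of the 89 neighbours, 5 (5.62%) were at least 1 log2 unit higher at 12 h in both lines, where 2.66% of all genes tested were, a count by size with no test. The neighbours named next were picked after their values were seen.

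LOC101248210 lies 289 bases from LOC101265447 on the same strand and was high earlier. It averaged 7.21 ± 2.22, 35.3 ± 14.6 and 42.5 ± 15.8 FPKM at 0, 4 and 12 h in EX, and 5.05 ± 2.06, 30.3 ± 9.46 and 36.8 ± 22.0 in MT (SD, n = 3 each). LOC101265447 itself was at most 0.71 FPKM at 4 h, when this neighbour was already near its 12 h level. LOC101254501, 17681 bases to the other side, likewise stood at 405 ± 71.6 FPKM at 4 h and 467 ± 123 at 12 h in EX, and at 368 ± 179 and 333 ± 115 in MT, beside 27.9 ± 17.8 in EX and 36.2 ± 18.6 in MT at 0 h.

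LOC101260537 has a close neighbour with an earlier course as well. LOC101261120, 307 bases away on the opposite strand, averaged 3.53 ± 0.641, 14.9 ± 2.93 and 14.3 ± 3.15 FPKM at 0, 4 and 12 h in EX, and 6.11 ± 1.55, 14.0 ± 5.62 and 14.2 ± 4.49 in MT. The other neighbours high at 12 h in both lines were LOC101256271, 12229 bases from LOC100736525, and LOC101254568, 35570 bases from LOC101253664.

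LOC101245991 lies 508 bases from LOC101244528 on the same strand. LOC101244528 averaged 22.8 ± 4.51, 69.9 ± 18.6 and 90.4 ± 36.0 FPKM at 0, 4 and 12 h in EX libraries, and 55.9 ± 22.6, 80.8 ± 30.6 and 68.5 ± 13.7 in MT libraries (SD, n = 3 each). Its EX minus MT difference was -1.18 log2 units at 0 h, -0.17 at 4 h, 0.32 at 12 h and -0.34 over the times, and none of these passed the threshold (limma adjusted p = 0.0883, 0.871, 1 and 0.41 in that order).

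At 12 h, 1 tested neighbour of LOC101245991 and 1 of LOC101251036 stood at least 1 log2 unit below 0 h in both lines. The share of all genes tested with such a fall was not counted. The first was LOC101248331, 33430 bases from LOC101245991 (-1.11 log2 units in EX and -1.23 in MT). The second, BR1 (so named in the RefSeq table), lies 12932 bases from LOC101251036. It averaged 1012 ± 263, 109 ± 17.4 and 122 ± 30.4 FPKM at 0, 4 and 12 h in EX, and 1166 ± 471, 361 ± 116 and 125 ± 20.7 in MT. LOC101250740, 524 bases away on the same strand as LOC101251036, averaged 4.68 ± 1.34 FPKM at 0 h and 1.90 ± 0.40 at 12 h in EX, and 6.45 ± 2.85 and 1.27 ± 0.0608 in MT. LOC104644399 overlaps 2 genes. LOC101267179, on the same strand, averaged 45.8 ± 3.05 FPKM at 12 h in EX and 42.8 ± 5.80 in MT, beside 50.3 ± 6.44 in EX and 57.1 ± 11.4 in MT at 0 h. LOC101249226, on the opposite strand, read at most 2.13 FPKM in any library. The low level of LOC104644399 (at most 3.32 FPKM) is uncertain where reads of such a pair could be split.

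**Figure D4:**
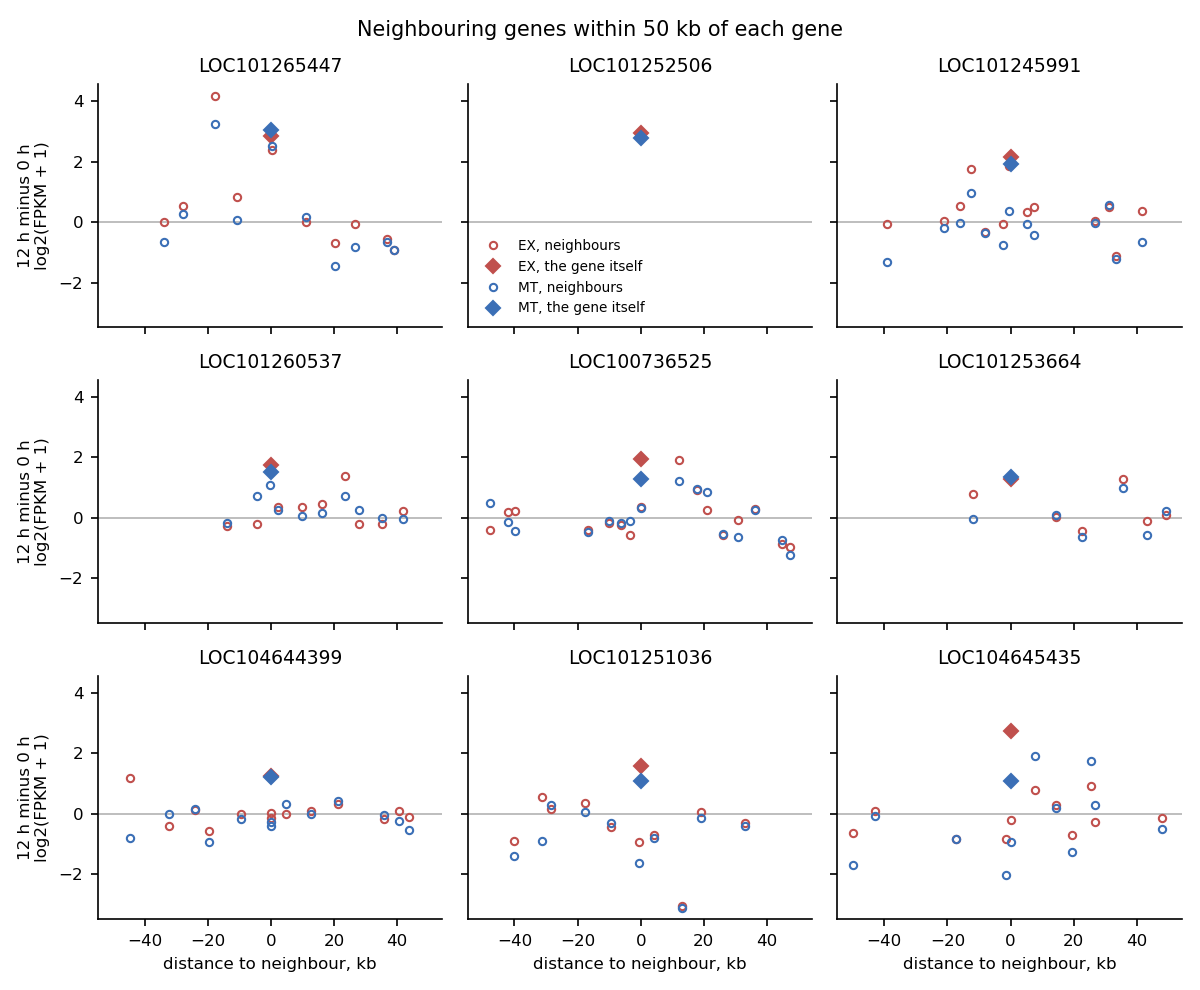
Difference between 12 h and 0 h in log2(FPKM + 1) (vertical axis) for the tested genes within 50 kb of each of the 9 genes, by distance in kb along the deposited coordinates (horizontal axis, 0 for overlapping genes). Red marks EX and blue MT, diamonds are the gene itself and open circles its neighbours; LOC101252506 had 2 neighbours and none of them was tested. The neighbours of LOC101265447 reach 4.19 in EX, and BR1 beside LOC101251036 lies at -3.04 in EX and -3.12 in MT.

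Membership turned on the limits for several genes. The 2 genes nearest inside the limit at 12 h were LOC104645435 and LOC101251036, both at 1.07 in MT. Nearest outside were LOC101247825 (1.09 in EX, 0.87 in MT) and LOC101257825 (1.53 in EX, 0.85 in MT). At 4 h, the nearest inside were LOC104644399 (0.46 in EX, 0.43 in MT) and LOC104645435 (0.37 in EX, 0.11 in MT), and the nearest outside were LOC101256199 (0.58 in EX, 0.46 in MT) and LOC101259391 (0.13 in EX, 0.60 in MT). With a pseudocount of 0.1, 19 genes met the limits and 4 of the 9 were among them: LOC101245991, LOC100736525, LOC101251036 and LOC104645435. LOC101265447 was then 1.38 log2 units higher at 4 h in EX and 1.06 in MT, on an estimated 21 fragments at 4 h in all. LOC101252506 was then -0.51 in EX and 1.55 in MT at 4 h. Over 18 sets with 1 library fewer, LOC101252506, LOC101245991 and LOC101260537 met the limits in all 18, LOC101265447 in 17, LOC100736525 and LOC101251036 in 16, LOC104644399 and LOC104645435 in 15 and LOC101253664 in 14. LOC101245991 was the 1 gene that met them under all 26 settings tried.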

How the data were processed

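Leaf RNA of 2 tomato lines was measured in 18 libraries. The authors deposited FPKM values per gene; the submitters' processing notes list RSEM 1.2.12, DESeq2 1.4.5, HISAT2 2.0.4 and Bowtie2 2.2.5 without their roles, and no source used here names the genome build. Depth was estimated from the steps of low FPKM values in 1-transcript genes of 350 to 1500 bases (length less 120 bases): 92.2 to 94.9% of low values lay within 0.1 of a whole fragment. These counts are estimates and served no test.

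Values were set to log2(FPKM + 1). Genes reaching a group mean of 1 FPKM somewhere (17870 of 23348) were fitted with limma 3.58.1 in R 4.3.3 (6 group means over all 18 libraries, variance trend), with Benjamini-Hochberg adjustment over all of them and a threshold of 0.05. The fit was tested on simulated data. These were drawn independently for each gene and library, so the test does not cover the deviations that real libraries share across genes. Differences between times chose the genes and were not tested. All 9 genes are named; neighbours lie within 50 kb. The members and lists were chosen with earlier results of these data known.

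Same-numbered libraries of EX and MT deviated together across genes at 12 h (r = 0.57, 0.23 and 0.41), which by the preset limit of 0.1 pairs them there. The labels give no reason. The function lists and promoter motifs planned at first were not run, since no product names or sequences were at hand, and Python 3.11.15 with pandas 2.3.3 made the descriptions.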

Additional observations from a re-analysis of the deposited data

How the results depend on the processing

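With a pseudocount of 0.1, 19 genes met the limits, with a 12 h difference of at least 1.5 4 did, with a 4 h difference within 0.25 2 did, and with 1 library fewer 6 to 11 did. Without library 1 of EX at 12 h and of MT at 12 h together, an alternative chosen after seeing the data, 10 did and 8 of the 9 were among them. Genes called by limma between EX and MT at 0 h (567) numbered 361 after median-of-ratios scaling, 371 with the replicate block, 23 with the compared libraries only, 192 without library 1 of MT at 0 h and of MT at 4 h together, and 90 to 3397 with 1 library fewer, highest without library 2 of MT at 0 h. At 4 h (53) they numbered 35 with the replicate block, 0 with the compared libraries only (2373 at an unadjusted p under 0.05), 17 without that pair of libraries, and 13 to 509 with 1 library fewer, highest without library 2 of MT at 4 h. At 12 h (24) they numbered 7 when 5 FPKM or more in 3 libraries or more was required, and 9 to 17 with 1 library fewer. Averaged over the times (373) they numbered 218 without that pair of libraries, and 161 to 1720 with 1 library fewer. Median-of-ratios scaling gave a split of 209 genes higher and 152 lower in EX at 0 h, beside 175 higher and 392 lower as deposited, and 176 higher and 132 lower over the times, beside 150 higher and 223 lower.

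Of the 9 genes, 0 were called over the times under that stricter minimum and without that pair of libraries, and 0 to 1 with 1 library fewer. LOC104644399, LOC101260537 and LOC101253664 did not reach the stricter minimum, so they were not tested under it. At 0 h 0 to 1 were called with 1 library fewer. The cause of these shifts was not tested. The replicate block gave each library number 1 effect shared by both lines and all times, so it did not pair the libraries at 12 h alone. With this block 22 genes were called at 12 h, and no call among the 9 changed. A fit that pairs the 12 h libraries only was not run. At 0 and 4 h not every library correlated best with its own number (same-number r from -0.42 to 0.34), so there the block rests on a shared number alone. No direction of LOC101245991 or LOC104645435 reversed under any alternative run. The promoter motif alternative was not run. Few fragments stood behind the values of LOC101265447 and LOC101252506 before 12 h, at most 10 estimated per library. Estimated depth was similar in all libraries.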
